A study of Homo sapiens with 8 samples.

Results

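Expression of 39 genes for protein folding, quality control and degradation in the endoplasmic reticulum (ER) was followed after silencing of TCF7L2 in the established human colorectal cancer line SW480. Most of the genes are known targets of the XBP1 and ATF6 branches of the unfolded protein response. The genes were chosen by symbol from the 18656 listed by the authors, and all 39 were present and passed the filter on low values. The libraries, 2 per group and 8 in all, came from cells transfected with siRNA against TCF7L2 and collected at 24, 48 or 72 h, and from the 0 h group, which received a negative-control siRNA. Total RNA depleted of ribosomal RNA was sequenced. All cells carried an siRNA delivered with a lipid reagent. As the only control is that of 0 h, silencing and hours in culture cannot be told apart where it is used. The labels do not say that the 2 libraries of a group were separate cultures (the protocol speaks of 3 replicates), so the p-values measure the spread between these libraries, which may be technical.

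The deposited values are TPM, length-scaled relative transcript abundances. The listed TPM summed to 352455.7 in the second 72 h library and to between 448107.5 and 485601.5 in the other 7. Most of the TPM thus lay in genes that are not listed, and more so in the second 72 h library. Each library was therefore scaled so that its median gene matched the average library (median-ratio scaling). The divisors were 0.804 for the second 72 h library and 0.987 to 1.07 for the others, and the values below are these scaled TPM. The targeted gene, TCF7L2, encodes a DNA-binding partner of beta-catenin in Wnt signalling. It had 6.48 and 6.99 scaled TPM at 0 h, 5.81 and 5.11 at 24 h, 4.67 and 3.83 at 48 h, then 3.93 and 4.39 at 72 h. Its log2 change against 0 h was -0.26 ± 0.11, limma adjusted p = 0.288 at 24 h. It passed at 48 h (-0.56 ± 0.11, limma adjusted p = 0.00725) and 72 h (-0.58 ± 0.11, limma adjusted p = 0.00197). All 7 epithelial markers looked at were present, with summed deposited TPM of 3141.56 to 4220.34 per library. Of the 4 immune markers only CD68 reached 1 TPM, with PTPRC at 0.63 or less, and the immune sum was 22.04 and 19.88 TPM at 72 h against 3.61 and 2.23 at 0 h. The 5 fibroblast markers summed to 49.01 and 33.98 TPM at 72 h against 12.51 and 10.52 at 0 h, most of it LUM, with PDGFRA at 0.13 or less. The 3 endothelial markers summed to 0.59 TPM or less. Of 4 plasma cell markers only SDC1 reached 1 TPM (20.3 and 16.5 TPM at 72 h, against 47.9 and 48.3 at 0 h), with JCHAIN at 0.03 or less. The part of these shifts in the results below was not tested.

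The unfolded protein response senses misfolded protein in the ER through 3 membrane proteins. ERN1 (IRE1) splices the mRNA of the transcription factor XBP1, ATF6 is cut in the Golgi to free its own transcription factor domain, and EIF2AK3 (PERK) slows translation and raises ATF4. Spliced XBP1 and cleaved ATF6 act on ER stress elements in the promoters of chaperone and degradation genes. Secretory epithelia, the gut among them, rely on this machinery, and Xbp1 loss in the mouse intestine is known to disturb its secretory cells.

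Promoter elements through which XBP1 and ATF6 are known to act are shown first, in genes that later rose and in genes that later fell. RefSeq promoter windows (GRCh38.p14, from 250 bases before to 50 after a transcript start) were found for 35 of the 39 genes. On either strand they were searched for the ER stress element (ERSE, CCAAT and CCACG with 9 bases of any kind between) and for ERSE-II (ATTGG and CCACG with 1 base between), which did not overlap each other. An ERSE was in a window of 7 of the 35 genes, against 25 of all 27305 genes with a window (0.0916%). ERSE-II was in 3 of the 35, against 19 of all genes (0.0696%). A match is a run of letters and not a shown binding site, and these genes are in part known as ER stress genes because of such elements.
Below, capitals mark the fixed letters of each match, 5′ to 3′ on the gene's strand, first in 4 genes that rose at 72 h and then in 5 that fell.
HSPA5, chr9:125241386-125241414, minus strand: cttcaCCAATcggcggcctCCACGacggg
HSP90B1, chr12:103930211-103930239, plus strand: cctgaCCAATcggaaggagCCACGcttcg
HSP90B1, chr12:103930316-103930344, plus strand: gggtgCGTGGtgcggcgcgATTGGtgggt
CALR, chr19:12938379-12938407, plus strand: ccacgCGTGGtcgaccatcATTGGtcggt
PDIA6, chr2:10812848-10812876, minus strand: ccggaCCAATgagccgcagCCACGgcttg
XBP1, chr22:28800598-28800626, minus strand: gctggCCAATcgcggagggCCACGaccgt
CANX, chr5:179698773-179698801, plus strand: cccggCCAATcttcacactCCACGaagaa
HERPUD1, chr16:56932020-56932040, plus strand: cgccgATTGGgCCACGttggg
SDF2L1, chr22:21642109-21642129, plus strand: ggaagCGTGGaCCAATcaaaa
HYOU1, chr11:119057375-119057395, minus strand: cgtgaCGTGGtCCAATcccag
HYOU1, chr11:119057269-119057289, minus strand: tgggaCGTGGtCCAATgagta
The CANX and PDIA6 matches lie inside the annotated span of the gene, before a transcript start downstream of its first. CRELD2, which was not called, held the remaining ERSE. The 250 bases before the start of HSPA5, the archetype of these promoters, show 1 exact ERSE in capitals (chr9:125241344-125241593, minus strand).
HSPA5 upstream: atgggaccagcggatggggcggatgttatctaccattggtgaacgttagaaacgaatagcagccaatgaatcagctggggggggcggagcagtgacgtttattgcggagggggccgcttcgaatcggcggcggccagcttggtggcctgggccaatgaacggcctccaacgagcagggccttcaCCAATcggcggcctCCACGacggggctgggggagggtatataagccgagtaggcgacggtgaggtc
Of the 35 genes with a window, a match of either kind was in 4 of the 10 genes higher at 72 h, 5 of the 12 lower and 1 of the 13 not called. The ERSE alone was in 4, 2 and 1 of them.

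After 72 h, the genes moved in both directions. In mean scaled TPM, all but DERL3 (2.22-fold higher, from a low level) differed by less than 2-fold. By limma at an adjusted p under 0.05 over the 11894 genes tested, 12 of the 39 were higher at 72 h than at 0 h and 12 were lower, while 25.8% of all genes tested were called higher and 26.2% lower. In either direction that is 61.5% of the ER genes, against 52.0% of all genes. Their median log2 change was -0.0084, against 0.0031 over all genes. The risers were the chaperones HSPA5, HSP90B1 and CALR, the isomerases PDIA3, PDIA4, PDIA6 and PPIB (for PDIA6 and PPIB the sign turned on the TPM as deposited), and DNAJC3, OS9, DERL3, SSR1 and MANF. The fallers were XBP1, ERN1, CANX, HYOU1, SDF2L1, TXNDC5, ERP29, HERPUD1, EDEM2, EDEM3, SEL1L and SEC61A1. These changes are relative to the median gene. On the TPM as deposited, where the median gene shifted by -0.19 and limma's SE rested on the trend over all genes alone (median SE 0.162, against 0.0912), 1 of the 39 was higher (DERL3) and 11 were lower (all of the fallers but HYOU1). All genes then split into 1253 higher and 3715 lower in place of 3064 and 3115. All 24 changes kept their direction on that scale except those of PDIA6 (-0.012) and PPIB (-0.024), and the other risers but DERL3 stood between 0.034 (HSP90B1) and 0.39 (CALR) there.

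The earlier times showed less. At 24 h 1 of the 39 genes (2.56%), CANX, was higher and 0 were lower, against 0.647% and 0.437% of all genes, or 1.08% either way. At an unadjusted p under 0.05, 6 were higher and 3 lower (23.1% either way), against 9.02% and 7.47% of all genes (16.5%). At 48 h 10 were higher (25.6%) and 2 lower (5.13%), against 12.0% and 11.5% of all genes (23.5% either way). Of those, 9 were also higher and 2 also lower at 72 h, in comparisons that share the 0 h libraries. As deposited, 0 of the 39 were called at 24 or 48 h. The changes at 48 h moved little there while their SE grew (PPIB 0.29 ± 0.17, against 0.29 ± 0.048 when scaled). Without the first or second 0 h library, 4 and 2 were higher and 1 and 1 lower at 48 h. Without the first or second 48 h library 4 and 4 were higher and 1 and 2 lower. Calls that held without any 1 of the 8 libraries at 48 h were those of PDIA3, PPIB and HERPUD1. The other 9 reached adjusted p-values of 0.0592 to 0.222 without the library that mattered most to each.

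**Figure D1:**
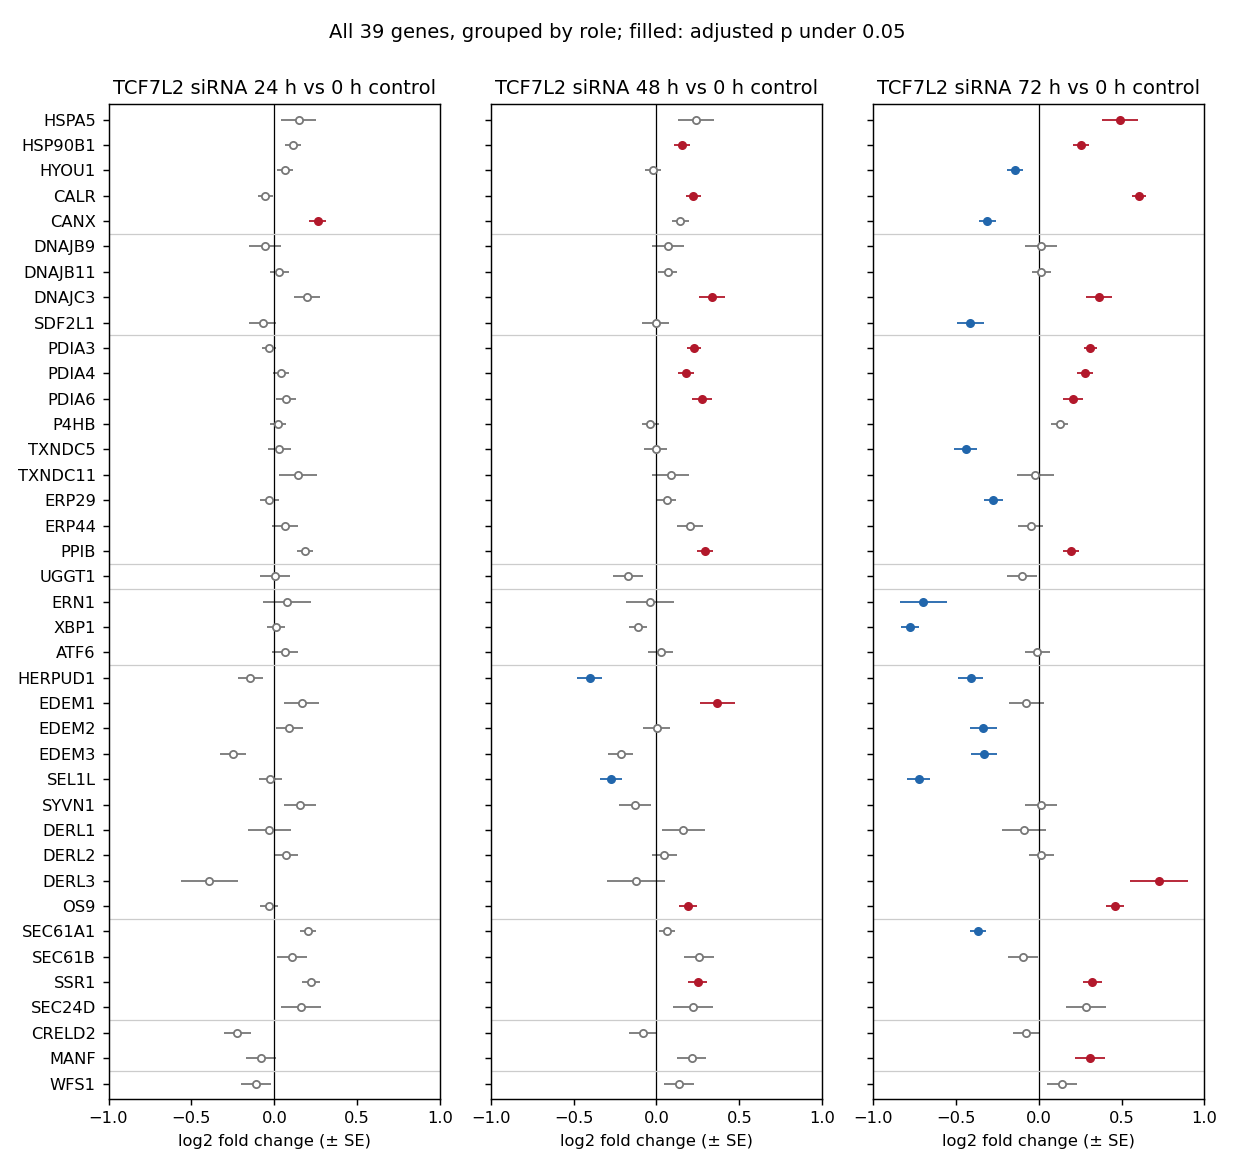
Log2 fold change (horizontal axis, ± SE) of the 39 ER genes at 24, 48 and 72 h of TCF7L2 siRNA against the 0 h control, grouped by role from the top: chaperones, co-chaperones, isomerases, UGGT1, sensors and XBP1, degradation, translocation and exit, released factors, WFS1. Filled points passed limma's test (red higher, blue lower), 1 of 39 at 24 h, 12 at 48 h and 24 at 72 h.

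The sensor ERN1 and its splicing target XBP1 fell at 72 h, and the sensor ATF6 did not pass the test. XBP1 (chr22:28794560-28800569, GRCh38.p14) had 99.8 and 95.2 scaled TPM at 0 h, 96.9 and 99.5 at 24 h, 87.1 and 93.4 at 48 h, then 56.4 and 56.7 at 72 h. The 4 libraries of 0 and 24 h lay between 95.2 and 99.8, and both 72 h libraries lay far below them. The log2 change at 72 h was -0.78 ± 0.052, limma adjusted p = 3.3e-06, against 0 h, and -0.79 ± 0.052, limma adjusted p = 3.55e-06, against 24 h. At 48 h it stood at -0.11 ± 0.052, limma adjusted p = 0.152. The table gives 1 value per gene, so spliced and unspliced XBP1 are summed and the splicing itself was not measured. ERN1 (chr17:64039142-64130144), the kinase and endoribonuclease that cuts XBP1 mRNA, had 4.92 and 4.08 scaled TPM at 0 h, 4.73 and 4.83 at 24 h, 4.84 and 3.88 at 48 h, then 2.81 and 2.01 at 72 h. The 72 h libraries lay below all 6 others, and the log2 change was -0.69 ± 0.14, limma adjusted p = 0.00274. ATF6 (chr1:161766320-161964070) had 9.20 and 9.85 scaled TPM at 0 h, 10.0 and 9.97 at 24 h, 9.82 and 9.60 at 48 h, then 9.65 and 9.26 at 72 h. The 72 and 48 h libraries overlapped those of 0 h, the 24 h libraries lay slightly above both, and the log2 change at 72 h was -0.0084 ± 0.076, limma adjusted p = 0.936.

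HSPA5, HSP90B1 and CALR, which hold and fold proteins in the ER lumen, rose at 72 h while CANX and HYOU1 fell. HSPA5 (BiP, chr9:125234853-125241343), the central HSP70-type chaperone of the ER, had 40.6 and 44.6 scaled TPM at 0 h, 48.5 and 46.0 at 24 h, 50.4 and 50.2 at 48 h, then 52.5 and 69.1 at 72 h. Every later library lay above both controls on this scale, and the second 72 h library was far above the first. The log2 change at 72 h was 0.49 ± 0.11, limma adjusted p = 0.00393. It was 0.30 without the second 72 h library and 0.69 without the first, and the adjusted p ran from 0.000121 to 0.0330 over the 8 libraries left out in turn. As deposited, the 72 h libraries had 54.4 and 55.6 TPM, close to each other, against 43.0 and 47.65 TPM at 0 h. The log2 change was then 0.28 ± 0.16 and did not pass. HSP90B1 (GRP94), the HSP90-type chaperone, had 341 and 344 scaled TPM at 0 h, 357 and 384 at 24 h, 386 and 378 at 48 h, then 422 and 396 at 72 h. The 72 h libraries lay above all others on this scale (log2 change 0.25 ± 0.049, limma adjusted p = 0.00196). As deposited, the second 72 h library had 318.74 TPM, below the 361.49 and 367.44 TPM at 0 h. HYOU1, which exchanges the nucleotide of HSPA5, had 107 and 107 scaled TPM at 0 h, 115 and 109 at 24 h, 104 and 107 at 48 h, then 94.6 and 98.4 at 72 h. Its small fall (-0.14 ± 0.048, limma adjusted p = 0.0294) was not called without the first or second 0 h library or the first 72 h library (-0.15, -0.15 and -0.11; adjusted p over the 8 left out 0.0306 to 0.121). Nor did it pass with quantile normalization (-0.080, adjusted p = 0.207), with the 5 TPM filter (-0.12, 0.0691), with only the 2 groups fitted (-0.14, 0.0568) or as deposited (-0.36, 0.0598).

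The pair of lectin chaperones that bind glycoproteins moved in opposite directions. CALR, the soluble one (chr19:12938609-12944489), had 282 and 270.3 scaled TPM at 0 h, 265 and 266 at 24 h, 327 and 317 at 48 h, then 430.0 and 412 at 72 h. Both 72 h libraries stood above every other on this scale, with a log2 change of 0.61 ± 0.043, limma adjusted p = 4.95e-06, and at 48 h of 0.22 ± 0.043, limma adjusted p = 0.00614. As deposited, the second 72 h library of CALR had 331.35 TPM, against 344.6 and 337.56 TPM at 48 h. CANX, its membrane-bound relative (chr5:179678656-179731641), had 323 and 297 scaled TPM at 0 h, 376 and 368 at 24 h, 346 and 338 at 48 h, then 257 and 243 at 72 h. It stood highest at 24 h and lowest at 72 h, without overlap of either with 0 h. The log2 change was 0.26 ± 0.050, limma adjusted p = 0.0477, at 24 h, and -0.31 ± 0.050, limma adjusted p = 0.000731, at 72 h. Its 24 h call did not hold without the first or second library of 0 h (0.32 and 0.20), 24 h (0.25 and 0.28) or 48 h (0.26 and 0.26), with adjusted p from 0.0924 to 0.262. It was also lost with quantile normalization (0.29, 0.0556), with no filter on low values (0.26, 0.131) and as deposited (0.16, 0.897). The ratio of CALR to CANX within a library, which no scaling of whole libraries alters, was 0.873 and 0.909 at 0 h, 0.706 and 0.725 at 24 h, 0.946 and 0.938 at 48 h, then 1.68 and 1.69 at 72 h. UGGT1, which marks unfolded glycoproteins for another round with both, ranged from 16.7 to 21.5 scaled TPM and was called at no time.

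**Figure D2:**
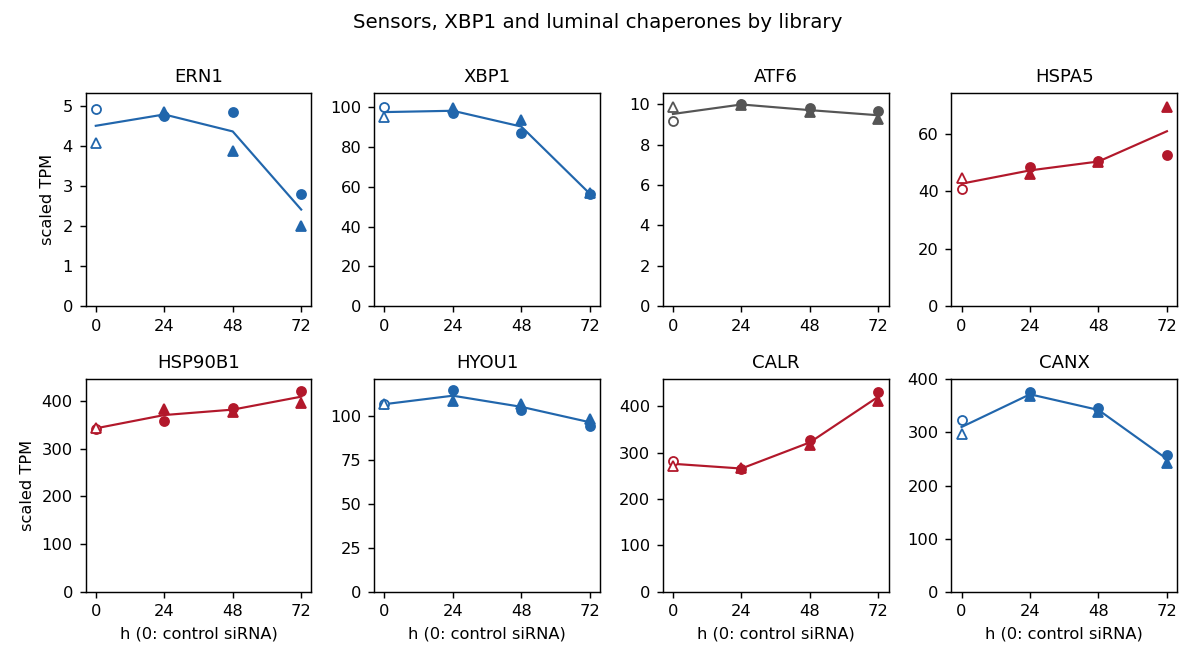
Scaled TPM (vertical axes, from 0) by hours of TCF7L2 siRNA, with the control siRNA at 0 h, for the sensors ERN1 and ATF6, for XBP1 and for the 5 luminal or membrane chaperones. Circles are the first and triangles the second library, open at 0 h, and lines join the group means (n = 2). Red genes were higher and blue ones lower at 72 h by limma, ATF6 (grey) was not called; XBP1 drops to 56.4 and 56.7 at 72 h while CALR reaches 430.0 and 412.

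Of 9 disulfide and proline isomerases, 4 rose at 72 h (PDIA3, PDIA4, PDIA6 and PPIB), 2 fell (TXNDC5 and ERP29) and 3 did not pass, while on the TPM as deposited 0 were higher and 2 lower, with PDIA6 and PPIB just below 0. Over all genes, 25.8% were higher and 26.2% lower, or 1253 and 3715 of 11894 as deposited. PDIA3 (ERp57), the partner of CALR and CANX, had 184 and 188 scaled TPM at 0 h, 179 and 184 at 24 h, 218 and 217 at 48 h, then 228 and 234 at 72 h. The 48 and 72 h libraries lay above all 4 of 0 and 24 h on this scale, with a log2 change of 0.31 ± 0.041, limma adjusted p = 0.000193 at 72 h. As deposited, the second 72 h library had 188.0 TPM, against 194.4 and 201.0 TPM at 0 h. PDIA4 (ERp72) had 64.6 and 62.0 scaled TPM at 0 h, 65.6 and 64.6 at 24 h, 71.5 and 72.1 at 48 h, then 78.7 and 75.1 at 72 h. Again the 48 and 72 h libraries lay above the rest on this scale (log2 change 0.28 ± 0.049, limma adjusted p = 0.00118 at 72 h). As deposited, the second 72 h library had 60.41 TPM, against 68.38 and 66.23 TPM at 0 h. PDIA6, a regulator of ERN1 as well as an isomerase, had 148 and 146 scaled TPM at 0 h, 146 and 162 at 24 h, 174 and 181 at 48 h, then 176 and 163 at 72 h. Both 48 h libraries were above the controls (0.27 ± 0.060, limma adjusted p = 0.0112). Its change at 72 h was 0.21 ± 0.060, limma adjusted p = 0.0160. The second 72 h library had 131.34 TPM as deposited, against 156.26 and 155.72 TPM at 0 h. The 72 h call did not hold without the first or second 0 h library or the first 72 h library (0.21, 0.20 and 0.16; adjusted p over the 8 left out 0.00932 to 0.0789), nor with no filter on low values (0.18, 0.0637). PPIB, the proline isomerase cyclophilin B, had 324 and 311 scaled TPM at 0 h, 359 and 363 at 24 h, 395 and 383 at 48 h, then 379 and 349 at 72 h. It was above the controls in all 6 later libraries on this scale. The log2 change was 0.29 ± 0.048, limma adjusted p = 0.00294, at 48 h, and 0.20 ± 0.048, limma adjusted p = 0.00729, at 72 h. Its second 72 h library had 280.92 TPM as deposited, against 342.69 and 332.55 TPM at 0 h. Removing the second 0 h library ended the 72 h call (0.17; adjusted p over the 8 left out 0.00174 to 0.0650).

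TXNDC5, a disulfide isomerase with thioredoxin domains, had 74.3 and 83.8 scaled TPM at 0 h, 77.7 and 83.4 at 24 h, 77.7 and 79.6 at 48 h, then 60.2 and 55.6 at 72 h. Only the 72 h libraries left the range of the others, with a log2 change of -0.44 ± 0.069, limma adjusted p = 0.000572. The TXNDC5 exons are shared with the readthrough gene BLOC1S5-TXNDC5, so its value is uncertain. ERP29, a relative of the disulfide isomerases that escorts secretory proteins, had 112 and 107 scaled TPM at 0 h, 110.4 and 104 at 24 h, 117 and 112 at 48 h, then 94.8 and 86.6 at 72 h. Both 72 h libraries were below all others (log2 change -0.27 ± 0.058, limma adjusted p = 0.00339). P4HB, the classical protein disulfide isomerase and a subunit of collagen prolyl hydroxylase, had 308 to 368 scaled TPM. It stood at 0.13 ± 0.050, limma adjusted p = 0.0573, at 72 h, and was called at no time. TXNDC11 (9.28 to 11.9) and ERP44 (8.84 to 11.4), which retrieves clients from the early Golgi, were called at no time.

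The 4 partners of HSPA5 split as well. DNAJC3 (p58IPK), a J-domain co-chaperone, had 12.7 and 11.7 scaled TPM at 0 h, 13.6 and 14.7 at 24 h, 15.6 and 15.7 at 48 h, then 15.3 and 16.8 at 72 h. All 6 later libraries were above the controls on this scale, and it rose at 48 h (0.34 ± 0.079, limma adjusted p = 0.0148) and 72 h (0.36 ± 0.079, limma adjusted p = 0.00375). SDF2L1, which works with HSPA5 and its J-domain partners, had 22.9 and 20.9 scaled TPM at 0 h, 20.3 and 21.2 at 24 h, 22.5 and 21.2 at 48 h, then 17.3 and 15.1 at 72 h. It fell at 72 h, where both libraries lay below all others (-0.41 ± 0.081, limma adjusted p = 0.00226). DNAJB9 (ERdj4), which holds ERN1 in check with HSPA5 and is a widely used XBP1 target, ranged from 6.44 to 7.51 scaled TPM with a log2 change at 72 h of 0.013 ± 0.098, limma adjusted p = 0.922. DNAJB11 (ERdj3) ranged from 50.9 to 55.3, at 0.017 ± 0.058, limma adjusted p = 0.822. Neither was called at any time.

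**Figure D3:**
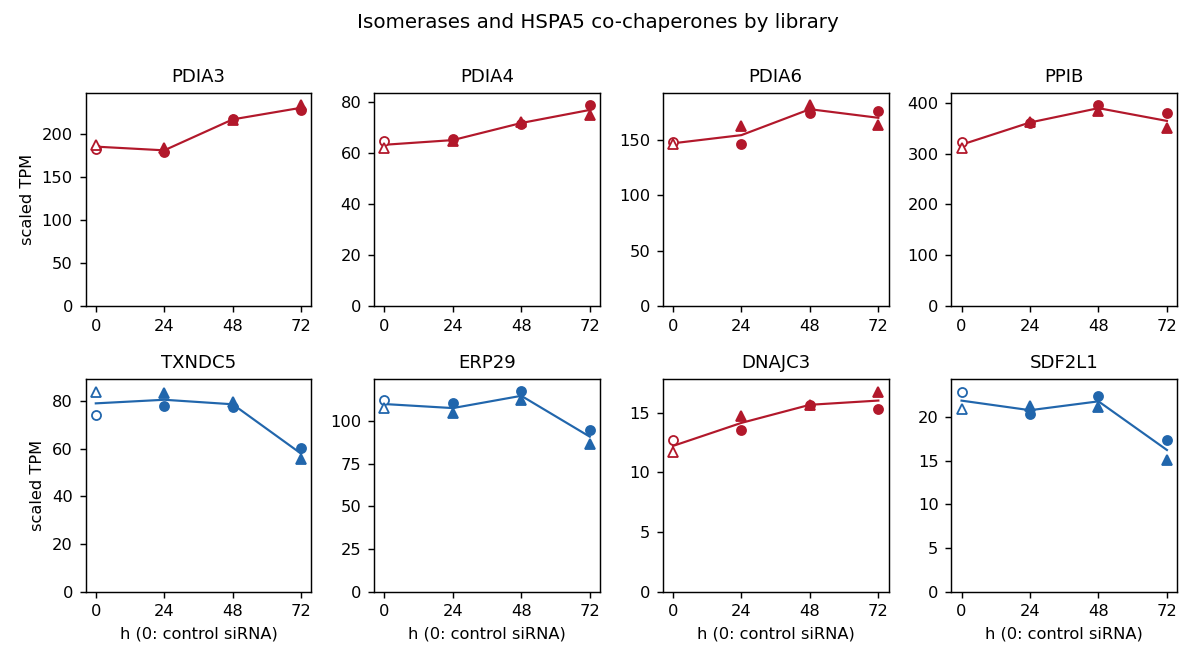
Scaled TPM (vertical axes, from 0) by hours of TCF7L2 siRNA, with the control siRNA at 0 h, for the 6 isomerases and 2 HSPA5 co-chaperones called at 72 h. Circles are the first and triangles the second library, open at 0 h, and lines join the group means (n = 2). PDIA3 stands at 228 and 234 at 72 h against 184 and 188 at 0 h (red, higher), and TXNDC5 at 60.2 and 55.6 against 74.3 and 83.8 (blue, lower).

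Of 10 genes of ER-associated degradation, which extracts misfolded proteins to the proteasome, 4 fell at 72 h (SEL1L, HERPUD1, EDEM2 and EDEM3), 2 rose (OS9 and DERL3) and 4 did not pass, a share called not far from the 52.0% of all genes. SEL1L (chr14:81471547-81533853), the adaptor of the ubiquitin ligase SYVN1 (HRD1), had 32.5 and 32.4 scaled TPM at 0 h, 32.0 and 31.7 at 24 h, 25.1 and 28.3 at 48 h, then 19.7 and 18.9 at 72 h. It fell at 48 h (-0.28 ± 0.068, limma adjusted p = 0.0183) and stood lower still at 72 h (-0.72 ± 0.068, limma adjusted p = 2.56e-05), with the 72 h libraries below all others. SYVN1 itself ranged from 10.6 to 13.4 scaled TPM, at 0.015 ± 0.097, limma adjusted p = 0.912 at 72 h. HERPUD1, a scaffold of the same ligase complex and also known to respond to ATF4, had 39.03 and 41.8 scaled TPM at 0 h, 38.3 and 34.7 at 24 h, 30.2 and 30.4 at 48 h, then 28.4 and 32.1 at 72 h. It was lower at 48 h (-0.40 ± 0.075, limma adjusted p = 0.00533) and 72 h (-0.41 ± 0.075, limma adjusted p = 0.00150) by similar amounts.

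The EDEM lectins, which trim mannose from proteins bound for degradation, gave different calls. EDEM2 had 14.7 and 13.3 scaled TPM at 0 h, 14.5 and 15.4 at 24 h, 14.2 and 13.8 at 48 h, then 11.5 and 10.4 at 72 h. It fell at 72 h (-0.33 ± 0.082, limma adjusted p = 0.00725). That call was lost without the first 0 h library (-0.27; adjusted p over the 8 libraries left out 0.00825 to 0.0608). EDEM3 had 11.3 and 12.2 scaled TPM at 0 h, 9.77 and 9.68 at 24 h, 9.95 and 10.0 at 48 h, then 8.89 and 9.43 at 72 h. All 6 later libraries were below the controls, and the fall passed at 72 h (-0.33 ± 0.077, limma adjusted p = 0.00565). EDEM1 had 9.07 and 8.45 scaled TPM at 0 h, 9.20 and 10.7 at 24 h, 10.5 and 12.7 at 48 h, then 8.22 and 8.32 at 72 h. Its call was at 48 h (0.37 ± 0.11, limma adjusted p = 0.0344), where its 2 libraries lay apart. The change was 0.24 without the second 48 h library and 0.49 without the first. The call was lost with no filter on low values (0.36, limma adjusted p = 0.0817). OS9, a lectin that hands glycoproteins to SEL1L, had 56.7 and 54.6 scaled TPM at 0 h, 55.7 and 53.1 at 24 h, 61.6 and 65.6 at 48 h, then 76.1 and 78.0 at 72 h. Its 48 and 72 h libraries lay above all 4 of 0 and 24 h, with a log2 change of 0.46 ± 0.054, limma adjusted p = 9.79e-05 at 72 h. DERL3, a membrane protein of the export channel, was the least abundant of the 39, with 0.982 and 1.35 scaled TPM at 0 h, 0.399 and 0.932 at 24 h, 0.988 and 0.978 at 48 h, then 2.23 and 2.93 at 72 h. Both 72 h libraries were above all others (0.72 ± 0.17, limma adjusted p = 0.00647), at levels where a fold change on the log2(TPM + 1) scale is understated. DERL3 exons overlap the gene SMARCB1 on the other strand, so these low values are uncertain. The call did not hold without the first 0 h library (0.60; adjusted p over the 8 left out 0.00378 to 0.0518). DERL1 and DERL2 ranged from 15.9 to 23.1 and from 22.4 to 25.7 scaled TPM and were called at no time.

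At the entry and exit of the ER, SEC61A1 fell and SSR1 rose at 72 h. SEC61A1, the pore subunit of the translocon, had 57.1 and 57.9 scaled TPM at 0 h, 66.9 and 65.6 at 24 h, 61.0 and 59.4 at 48 h, then 44.3 and 44.4 at 72 h. It was above the controls at 24 h without passing (0.20 ± 0.047, limma adjusted p = 0.0793) and below all others at 72 h (-0.37 ± 0.047, limma adjusted p = 0.000182). SSR1, a translocon-associated subunit, had 23.9 and 24.2 scaled TPM at 0 h, 28.3 and 28.1 at 24 h, 28.7 and 28.8 at 48 h, then 29.6 and 31.2 at 72 h. On this scale it was above the controls in all 6 later libraries and passed at 48 h (0.25 ± 0.056, limma adjusted p = 0.0129) and 72 h (0.32 ± 0.056, limma adjusted p = 0.00108). As deposited, the second 72 h library had 25.1 TPM, against 25.34 and 25.85 TPM at 0 h. SEC61B, the small translocon subunit (60.1 to 86.2 scaled TPM), and SEC24D, a cargo adaptor of the COPII coat (6.97 to 10.1), were called at no time. MANF, a stress-induced protein released from the ER, had 66.2 and 70.4 scaled TPM at 0 h, 61.1 and 68.0 at 24 h, 87.2 and 71.9 at 48 h, then 87.6 and 82.1 at 72 h. Its second 72 h library had 66.04 TPM as deposited, against 70.09 and 75.25 TPM at 0 h. When scaled, MANF rose at 72 h (0.31 ± 0.089, limma adjusted p = 0.0161), against a change of 0.092 as deposited. That call was lost without the first 0 h or the first 72 h library (0.26 and 0.27; adjusted p over the 8 left out 0.00577 to 0.0961) and with no filter on low values (0.28, 0.0643). CRELD2, another such protein (12.3 to 15.7 scaled TPM, -0.075 ± 0.080, limma adjusted p = 0.459 at 72 h) was called at no time. WFS1, wolframin, an ER membrane protein tied to calcium balance, had 34.4 and 34.7 scaled TPM at 0 h, 32.0 and 31.8 at 24 h, 39.3 and 36.8 at 48 h, then 34.3 and 42.6 at 72 h. Of the 4 comparisons it passed in 1, that of 72 with 24 h.

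**Figure D4:**
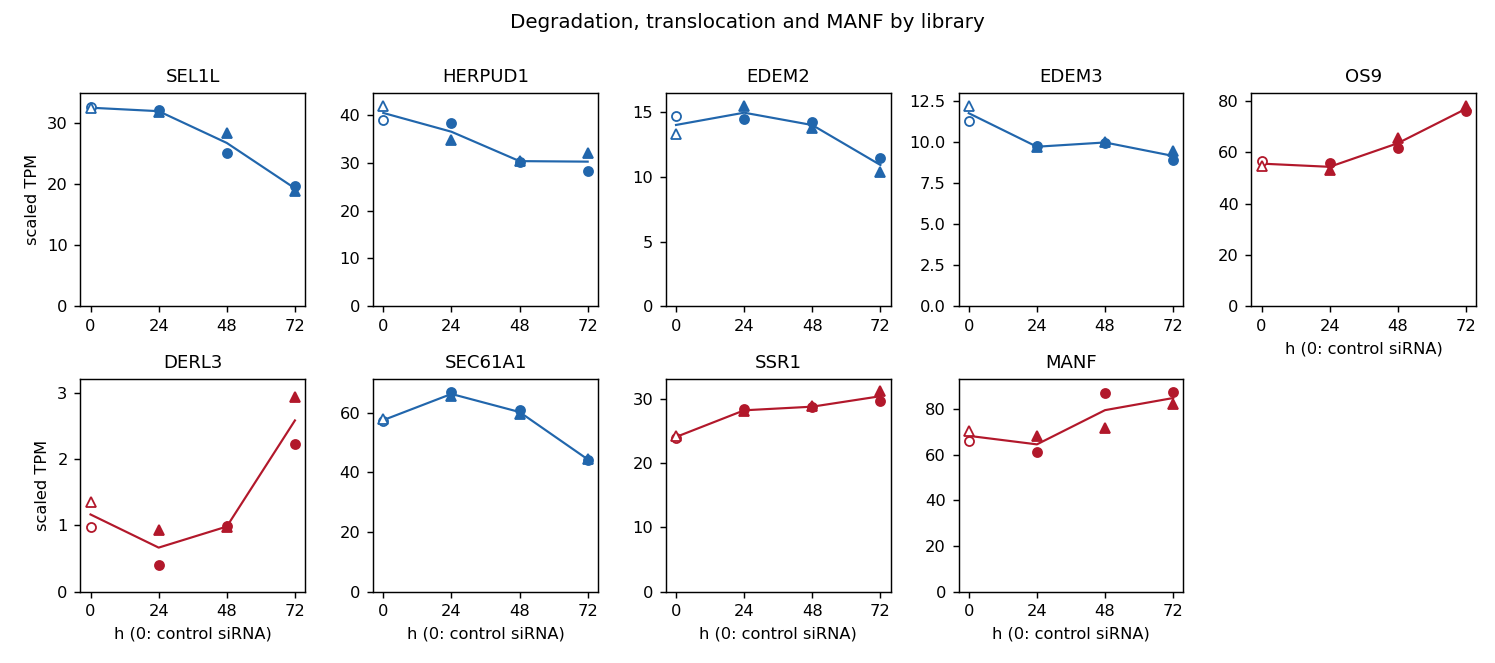
Scaled TPM (vertical axes, from 0) by hours of TCF7L2 siRNA, with the control siRNA at 0 h, for the 6 degradation genes called at 72 h and SEC61A1, SSR1 and MANF. Circles are the first and triangles the second library, open at 0 h, and lines join the group means (n = 2). SEL1L stands at 19.7 and 18.9 at 72 h against 32.5 and 32.4 at 0 h (blue, lower), and OS9 at 76.1 and 78.0 against 56.7 and 54.6 (red, higher).

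Within the cells given TCF7L2 siRNA, 72 h was set against 24 h. This difference uses no control value, but the fit takes its spread and scaling from all 8 libraries. With no control siRNA at 24 or 72 h, time under silencing and hours in culture cannot be told apart here either. Here 9 of the 39 genes were higher and 11 lower, against 24.9% and 25.2% of all genes tested (51.3% either way, against 50.1%). The 8 higher at 72 h than at both 24 and 0 h were HSPA5, HSP90B1, CALR, PDIA3, PDIA4, OS9, DERL3 and MANF. WFS1 was higher than at 24 h only (0.25 ± 0.090, limma adjusted p = 0.0406). The 11 lower were those that fell against 0 h, except EDEM3. CANX and SEC61A1 had their highest values at 24 h, and they changed by -0.57 ± 0.050, limma adjusted p = 2.06e-05 (CANX) and -0.57 ± 0.047, limma adjusted p = 1.46e-05 (SEC61A1), at 72 h against 24 h. Of these calls, 4 depended on single libraries. That of WFS1 was lost without any 1 of 7 libraries, all but the first of 72 h (change 0.10 without the second 72 h library; adjusted p over the 8 left out 0.00131 to 0.264). That of HSP90B1 was lost without any 1 of 6, the exceptions being the second of 24 h and of 72 h (lowest change 0.089; adjusted p 0.0158 to 0.229). HSPA5 lost it without either 24 h library or the second 72 h library (0.15 without the last; 0.000442 to 0.125), and HERPUD1 without the first library of 24 or 72 h (0.00766 to 0.113). With only the 2 groups fitted, HSP90B1 and WFS1 did not pass (adjusted p = 0.108 and 0.0783), and with no filter on low values neither did they nor HSPA5 (0.138, 0.109 and 0.0792). HSP90B1 also missed with quantile normalization (0.0550). As deposited, 2 were higher (CALR and DERL3) and 9 lower.

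Genes of neighbouring pathways outside the 39 were counted at 72 h from lists drawn up by function. Earlier results of these data were known when the lists were made, so the counts are not an independent test. In the branch of EIF2AK3 and ATF4, 0 of 11 were higher and 10 lower, against 25.8% and 26.2% of all genes, with a median log2 change of -1.21, against 0.0031 over all genes. TRIB3, a pseudokinase induced by ATF4, had 31.3 and 29.4 scaled TPM at 72 h, against 308 and 306 at 0 h (-3.30 ± 0.050, limma adjusted p = 6e-10). DDIT3 (CHOP), the apoptotic factor of the branch, had 10.95 and 12.6 scaled TPM at 72 h, against 37.2 and 39.2 at 0 h (-1.62 ± 0.072, limma adjusted p = 2.78e-07). DDIT4 and CEBPB fell by 2.39 and 2.04 on the log2 scale. These 4 were picked by the smallest p of the list at 72 h. Each of their falls was greater than any among the 39 genes, which given that choice is a description and not a test. Among other regulators of the response, 3 of 12 were higher and 5 lower (median -0.18). CREB3, a membrane factor cut like ATF6, had 8.28 and 7.55 scaled TPM at 72 h, against 16.3 and 17.0 at 0 h (-0.98 ± 0.073, limma adjusted p = 6.46e-06). ATF6B, the paralog of ATF6, had 21.4 and 23.2 scaled TPM at 72 h, against 16.5 and 16.7 at 0 h (0.41 ± 0.069, limma adjusted p = 0.000934).

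Other ER folding and redox genes split into 10 higher and 10 lower of 29 (median 0.056), as did further degradation genes, with 6 and 6 of 22 (median 0.077). Of all genes, 25.8% were higher and 26.2% lower. CLGN, a testis-expressed relative of calnexin, had 1.80 and 1.96 scaled TPM at 72 h, against 7.85 and 8.02 at 0 h (-1.63 ± 0.097, limma adjusted p = 1.53e-06), a fall in the same direction as CANX. FKBP9, a proline isomerase, had 79.8 and 66.5 scaled TPM at 72 h, against 189 and 169.8 at 0 h (-1.29 ± 0.084, limma adjusted p = 2.74e-06). Among translocation, signal peptidase and glycosylation genes, 7 were higher and 11 lower of 31 (median -0.11). The paralogous catalytic subunits of the oligosaccharyltransferase went opposite ways. STT3B had 205 and 186 scaled TPM at 72 h, against 130.3 and 135 at 0 h (0.56 ± 0.058, limma adjusted p = 4.86e-05). STT3A had 82.7 and 86.6 scaled TPM at 72 h, against 117 and 123 at 0 h (-0.50 ± 0.059, limma adjusted p = 0.000104). Of ER to Golgi transport genes 8 of 23 were higher and 7 lower (median 0.0038). SEC23A, of the COPII coat, had 34.9 and 36.6 scaled TPM at 72 h, against 17.7 and 16.7 at 0 h (1.01 ± 0.069, limma adjusted p = 3.56e-06). Of cytosolic and mitochondrial chaperones 7 of 13 were higher and 1 lower (median 0.19). HSPB1, a small heat shock protein, had 169.6 and 202 scaled TPM at 72 h, against 92.2 and 79.7 at 0 h (1.10 ± 0.093, limma adjusted p = 1.34e-05). As deposited these 7 lists had 0, 1, 2, 0, 1, 2 and 3 genes higher and 10, 6, 11, 6, 12, 9 and 1 lower, in the order of the text, and the genes of these lists named here kept their direction. Of them, ATF6B (0.20, adjusted p = 0.332) and STT3B (0.34, 0.0873) no longer passed there.

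**Figure D5:**
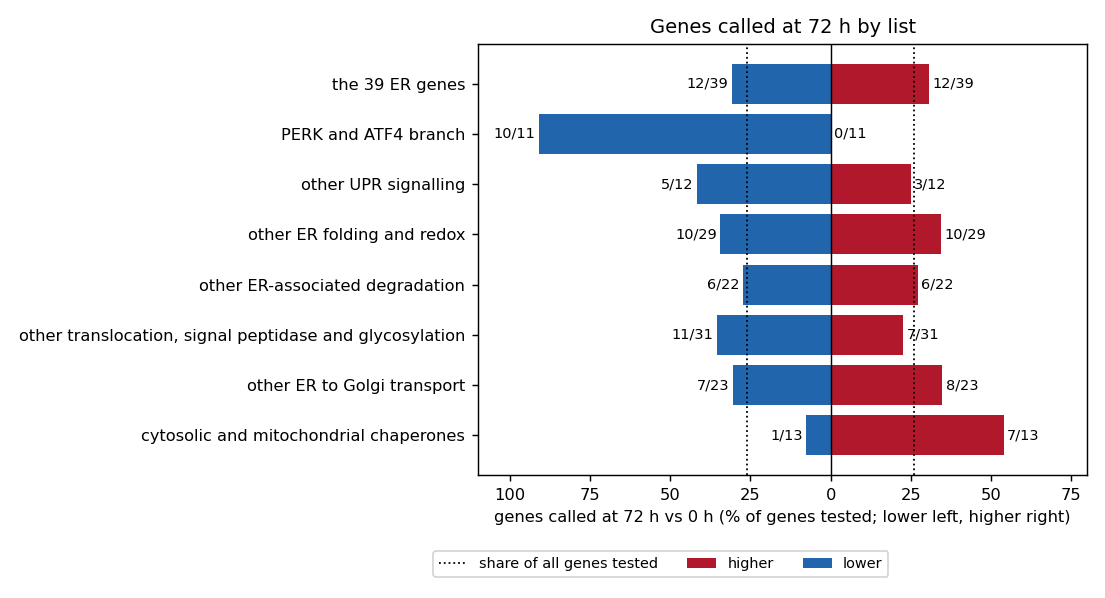
Share of genes called at 72 h against 0 h (horizontal axis, % of the genes tested in each list; red to the right higher, blue to the left lower, with counts at the bar ends) for the 39 ER genes and 7 lists of related genes. Dotted lines mark the share of all genes tested, 25.8% higher and 26.2% lower; the EIF2AK3 and ATF4 list has 10 of 11 genes lower.

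Exons of 13 of the 26 genes called in at least 1 comparison overlap a gene on the other strand in GENCODE v29, among them CALR, CANX, HSP90B1, PDIA3, PDIA6, PPIB, SEC61A1 and OS9. The sources do not state whether the authors' counting used strand, so reads of the partner cannot be told apart. SSR1 also overlaps CAGE1 on its own strand. PDIA3, XBP1, SSR1 and ERP29 have pseudogenes that may share reads.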

How the data were processed

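RNA-seq of 8 SW480 libraries was analysed from 1 table of TPM values per gene deposited by the authors. Per the submitters' processing notes, RSEM and STAR, with Trimmomatic, were among the tools and hg19 was the build; the sources used here name no versions, annotation or strand setting. TPM keep no depth, so the depth of the libraries is unknown. Each library was divided by the median, over genes, of its ratio to the geometric mean of the 8 libraries. Genes reaching 1 TPM in 2 libraries or more were tested (11894 of 18656), and log2(scaled TPM + 1) was fitted over all 8 libraries with limma 3.58.1 in R 4.3.3 (eBayes with a trend, Benjamini-Hochberg over all genes tested, threshold 0.05). Fold changes are on that log2 scale and understate the change of low genes. TPM as deposited, quantile normalization, pseudocounts of 0.1 and 5, no filter, a 5 TPM filter, a replicate block, fits of only the groups compared and leaving out each library were the alternatives. The fit was also run on simulated data with independent noise of the fit's own spread and no shift of whole libraries. That run cannot judge the scaling or whether the libraries are technical replicates. The 39 genes and all lists were chosen with earlier results of these data known. Of the 39, values in every library are given for HSPA5, XBP1, ERN1, ATF6 and those called in at least 1 of 4 comparisons, and the others by range; of other lists, genes were named from the 4 with the smallest p at 72 h. Promoter windows are RefSeq's for GRCh38.p14 and gene overlaps are from GENCODE v29.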

Additional observations from a re-analysis of the deposited data

Results flagged for a closer look

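For 20 of the 39 genes the change after 72 h of TCF7L2 siRNA differed from that after 24 h, both taken against the 0 h control, by limma's test of the difference itself, which equals 72 h against 24 h. The change at 72 h minus that at 24 h, on the log2 scale, was above 0 for 9 genes. It was 0.35 for HSPA5, 0.14 for HSP90B1, 0.66 for CALR, 0.35 for PDIA3, 0.24 for PDIA4, 1.12 for DERL3, 0.49 for OS9, 0.39 for MANF and 0.25 for WFS1. It was below 0 for the other 11, at -0.21 for HYOU1, -0.57 for CANX, -0.34 for SDF2L1, -0.47 for TXNDC5, -0.24 for ERP29, -0.77 for ERN1, -0.79 for XBP1, -0.26 for HERPUD1, -0.42 for EDEM2, -0.70 for SEL1L and -0.57 for SEC61A1. HSP90B1 and WFS1 did not pass this test when only the 72 and 24 h groups were fitted. With no filter on low values, HSPA5, HSP90B1 and WFS1 did not pass. On the TPM as deposited, 9 of the 20 did not: HSPA5, HSP90B1, HYOU1, PDIA3, PDIA4, ERP29, OS9, MANF and WFS1. Of all genes tested, 50.1% passed the same test, against 51.3% of the 39. Groups of 2 libraries were too small for a test of single outlying libraries.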

How the results depend on the processing

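Limits come first from scaling, which altered limma's SE as well as the changes. On the TPM as deposited, 0 of the 39 genes were higher at 24 h, 0 higher and 0 lower at 48 h, and 1 higher and 11 lower at 72 h, with 2 higher and 9 lower at 72 h against 24 h. Over all genes this gave 25 higher and 30 lower (24 h), 548 and 374 (48 h), 1253 and 3715 (72 h), and 1429 and 2548 (72 h against 24 h), in place of 77 and 52, 1428 and 1369, 3064 and 3115, and 2965 and 2992. The median gene shifted by -0.089, -0.015, -0.19 and -0.11. At 48 h the changes moved little while the SE grew. PPIB stood at 0.29 ± 0.17 as deposited and 0.29 ± 0.048 in the main setting, and HERPUD1 at -0.41 ± 0.16 and -0.40 ± 0.075. The changes of PDIA6 and PPIB at 72 h became -0.012 and -0.024. The 24 h count of 1 became 0 with quantile normalization and with no filter. Over all genes, the 24 h counts were 9 higher and 6 lower with no filter and 121 and 91 with the 5 TPM filter. Other settings left the counts of the 39 within 1.5 times. ATF6 at 72 h, -0.0084 in the main setting, was 0.019 with the 5 TPM filter and between -0.0555 and 0.035 with each library left out, positive without the second 0 h (0.035) or second 72 h library (0.020). Leaving out each library in turn, 0 to 2 of the 39 were higher and 0 lower at 24 h, 2 to 13 higher and 1 to 2 lower at 48 h, 9 to 13 higher and 10 to 12 lower at 72 h, and 6 to 9 higher and 10 to 11 lower at 72 h against 24 h. The cause of these shifts was not tested.

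Replicate numbers showed little sign of pairing, as deviations of same-numbered libraries correlated between -0.085 and 0.11 over pairs of groups. Such correlations cannot show that same-numbered libraries were handled apart. With the replicate number as a block, 1 of the 39 was higher at 24 h, 12 higher and 12 lower at 72 h, and 10 higher and 2 lower at 48 h, where HSP90B1 lost its call (adjusted p = 0.0587) and another gene gained one. The block gave 58 higher and 33 lower of all genes at 24 h, 1383 and 1324 at 48 h, then 3058 and 3083 at 72 h. With 2 libraries a group and no depth in TPM, small changes of low genes could not be judged.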
